A study of Homo sapiens with 3 samples.

Results

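TFAP2A, TFAP2B and TFAP2C are 3 of the 5 genes of the TFAP2 family whose symbols are in the feature tables, among 36601 genes measured. They were taken by their symbols. TFAP2 proteins are transcription factors that bind DNA as dimers at GC-rich sites and share a conserved helix-span-helix dimerisation region. TFAP2A is known for its roles in surface ectoderm, neural crest and amnion, TFAP2B for neural crest and kidney, and TFAP2C for trophoblast, naive pluripotent cells and human primordial germ cells. In the human system TFAP2C acts with SOX17 and PRDM1 in germ cell specification, and TFAP2A has been described in cells that pass through an amnion-like or early progenitor state after BMP signalling.

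The samples were single-cell libraries made from UCLA1 cells, which are an established line of human embryonic stem cells, after 1, 2 and 3 days in a culture under a Geltrex overlay that the labels call GiMO. The series title names a response to BMP4, but the labels do not say when or whether each sample received it, and all 3 libraries come from the same line with no untreated library. With a single library for each day, differences between days could not be checked against replicates and no test was made, and every interval below is an exact 95% interval that covers counting error only. Day, library and any batch cannot be told apart. After filtering, 3533, 7224 and 6804 cells remained at days 1, 2 and 3, with a median of 41517, 15553.5 and 19181 UMIs (unique molecules counted) per cell and 165440424, 119618173 and 137259601 UMIs in all. The libraries of days 2 and 1 shared 9 cell barcodes, those of days 3 and 1 shared 12, and those of days 3 and 2 shared 21.

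On hg38 with GENCODE release 44, TFAP2A (ENSG00000137203) lies on chromosome 6 from 10393186 to 10419659 on the minus strand. TFAP2B (ENSG00000008196) lies on the plus strand of the same chromosome, from 50818723 to 50847619, and TFAP2C (ENSG00000087510) on the plus strand of chromosome 20, from 56629306 to 56639283. A pair of non-coding genes on the opposite strand, TFAP2A-AS1 and TFAP2A-AS2, lie wholly within the span of TFAP2A. The sources used here do not state whether strand was used in counting, and without strand the reads of TFAP2A and of these partners cannot be told apart. The antisense genes had 0.193, 0.351 and 0.219 CPM (TFAP2A-AS1) and 1.98, 1.71 and 1.42 CPM (TFAP2A-AS2) at days 1, 2 and 3, where CPM is a gene's UMIs scaled to a total of 1000000 UMIs over the kept cells. In a pool of cells, fewer expressing cells and less RNA per cell give the same CPM, so levels are followed below by shares of cells and by levels within marker-defined cells.

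TFAP2A was present from day 1 and was lowest at day 3. Its level was 13.4 CPM at day 1 (interval 12.8 to 13.9), 15.1 CPM at day 2 (14.4 to 15.8) and 8.49 CPM at day 3 (8.01 to 8.997), from 2210, 1805 and 1166 UMIs. The day 3 library was below both others by more than counting error, with a ratio of 0.563 to day 2 (0.523 to 0.606) and of 0.636 to day 1 (0.592 to 0.683). Between days 2 and 1 the log2 difference was 0.18 with CPM but −0.15 with the TMM normalisation, so no order of those days is given. That normalisation moved the median of all genes by −0.32 between days 2 and 1.

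TFAP2B was nearly undetected at first and was higher on each later day. It had 6, 35 and 122 UMIs at days 1, 2 and 3, which are 0.0363, 0.293 and 0.889 CPM. The ratio of day 3 to day 2 was 3.04 (2.07 to 4.56) and that of day 2 to day 1 was 8.07 (3.36 to 23.5). At no day did its level reach 10 CPM in the whole library, so it was outside the genes counted as apart between days.

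TFAP2C was highest at day 1. Its level was 14.3 CPM at day 1 (13.8 to 14.9), 9.597 CPM at day 2 (9.05 to 10.2) and 8.27 CPM at day 3 (7.79 to 8.76), from 2373, 1148 and 1135 UMIs. The ratio of day 3 to day 1 was 0.576 (0.537 to 0.619), that of day 2 to day 1 was 0.669 (0.623 to 0.718), and that of day 3 to day 2 was 0.862 (0.793 to 0.936). With TMM the log2 difference of day 2 over day 1 was −0.90, against −0.58 with CPM.

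**Figure D1:**
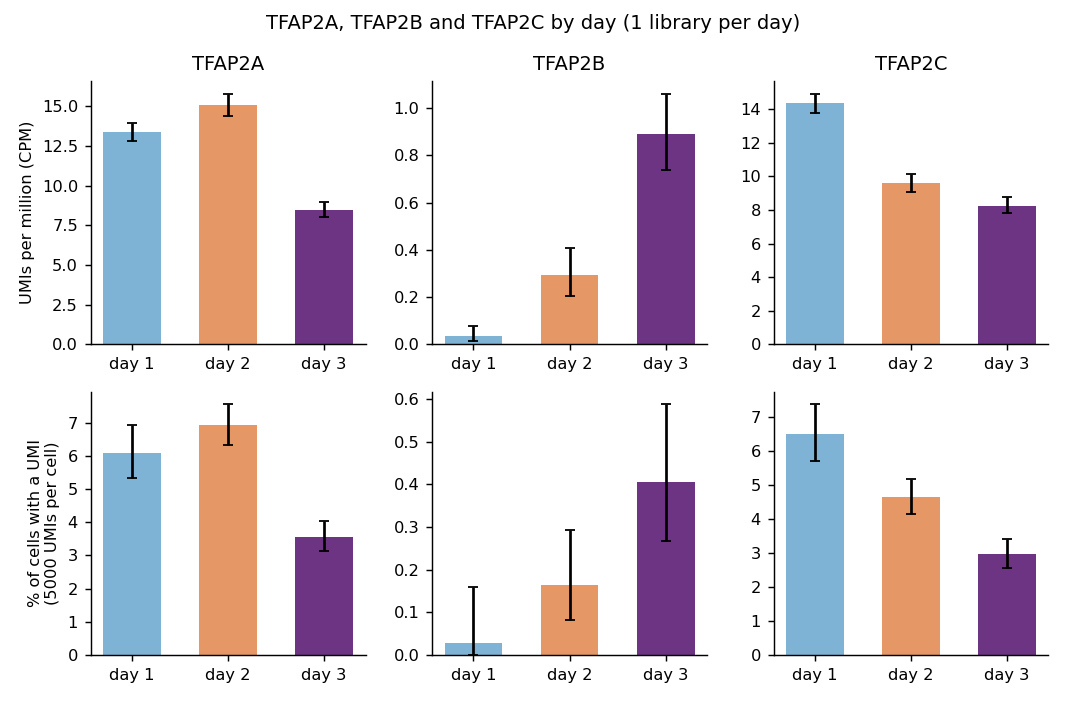
Bars give the level in CPM (upper row) and the percent of thinned cells, 5000 UMIs each, in which the gene was found (lower row) for TFAP2A, TFAP2B and TFAP2C in the 1 library of each day, with exact 95% counting intervals as error bars and a separate axis from 0 in each panel. TFAP2A was lowest at day 3 with 8.49 CPM, TFAP2B highest there with 0.889 CPM, and TFAP2C highest at day 1 with 14.3 CPM.

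Genes were counted as apart between days when they had at least 10 CPM in the higher library, differed at least 1.5-fold and had an interval that excluded 1. Across all genes tested, 12.5% were higher and 12.1% lower at day 3 than at day 2, 31% were higher and 15.1% lower at day 3 than at day 1, and 17.1% were higher and 5.25% lower at day 2 than at day 1. By this rule TFAP2A was lower at day 3 than at either earlier day, and TFAP2C was lower at day 3 than at day 1. With 12.1% and 15.1% of genes lower at day 3, such calls were common among genes. TMM turned the balance between days, with 1814 genes higher and 2628 lower at day 3 than at day 1, against 3134 and 1526 with CPM, and 549 higher and 1688 lower at day 2 than at day 1, against 1662 and 510.

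The share of cells with at least 1 UMI depends on depth, which was higher at day 1, so cells were also thinned to 5000 UMIs each. TFAP2A was then found in 6.09% of cells at day 1 (213 of 3499), 6.93% at day 2 (467 of 6741) and 3.57% at day 3 (238 of 6675). TFAP2B was found in 1, 11 and 27 cells, or 0.0286%, 0.163% and 0.404%. TFAP2C was found in 6.52%, 4.64% and 2.97% of cells, which are 228, 313 and 198 cells. Without thinning the shares were 30.1%, 17.9% and 9.70% for TFAP2A, 0.113%, 0.388% and 1.25% for TFAP2B, and 41.6%, 13.1% and 7.11% for TFAP2C.

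TFAP2C was spread over cells in different ways on the 3 days. The highest count in a cell was 8, 5 and 23 UMIs at days 1, 2 and 3, and cells with at least 5 UMIs numbered 35, 2 and 68 without thinning. Those cells held 8.01% of all TFAP2C UMIs at day 1, 0.871% at day 2 and 45.5% at day 3, although the day 1 library was the deepest. After thinning, cells with at least 2 UMIs of TFAP2C made up 0.286%, 0.208% and 0.734% of cells at days 1, 2 and 3. For TFAP2A the same share was 0.572%, 0.860% and 0.569%, so the day 3 share was close to that of day 1 although the level was lower.

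To find which cells held each factor, every thinned cell was put in 1 of 7 classes by marker genes that include no TFAP2 gene. The amnion gate asks for UMIs of at least 2 of GATA3, ISL1, GABRP, VTCN1, WNT6, DLX5, HPGD and IGFBP3 without MESP1, and the germ gate for SOX17 with NANOS3 or PRDM1. The endoderm gate asks for at least 2 of SOX17, FOXA2, HHEX, CXCR4 and CER1, 1 of them SOX17 or FOXA2, without NANOS3. The others are MESP1-positive cells, cells with TBXT or MIXL1 but not MESP1 (called streak cells here), SOX2-positive cells and the rest. Gates were applied in the order germ, endoderm, amnion, MESP1, streak and SOX2, and each cell kept the first class it met. A later class thus leaves out cells with its marker that an earlier gate took. A gate name is only a name for its genes. At days 1 and 2 the cells of the amnion gate had 1122 and 912 CPM of POU5F1, a pluripotency factor, and 0 and 1.75 CPM of VTCN1, an amnion gene, so the data go against reading them as amnion. At day 3 they had 342 CPM of POU5F1 and 29.0 CPM of KRT7, a keratin of simple epithelia, neither of which is in the gate. The lower POU5F1 of day 3 was not particular to the gate. Cells with no UMI of SOX17, NANOS3 or PRDM1 had 1178, 1057 and 385 CPM of it at days 1, 2 and 3. VTCN1 and GABRP, a receptor subunit of amnion cells, were at 12.6 and 41.6 CPM, but as genes of the gate they are no independent check. The germ gate took 1, 30 and 128 cells at days 1, 2 and 3. At day 2 its cells had 5.91 CPM of NANOS3, an RNA-binding regulator of germ cells, and 25.6 CPM of FOXA2, an endoderm factor, while at day 3 they had 112 CPM of NANOS3 and 32.6 CPM of FOXA2, so this gate too holds cells with an endoderm gene.

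TFAP2A was higher in cells of the amnion gate than in other cells in all 3 libraries, and most of all at day 3. The gated cells had 34.8 CPM against 12.8 CPM in other cells at day 1 (100 gated cells), 45.5 against 14.1 CPM at day 2 (217 cells) and 74.2 against 5.91 CPM at day 3 (272 cells). The ratios were 2.72 (2.30 to 3.20), 3.22 (2.75 to 3.75) and 12.6 (11.1 to 14.2). With gates on at least 2 UMIs the log2 ratios were 2.38, 2.75 and 4.22, against 1.45, 1.69 and 3.65. At day 3 relative to day 2 the ratio was 1.63 (1.36 to 1.96) in gated cells and 0.343 (0.298 to 0.395) in MESP1-positive cells. The rise was not shared by all cells with amnion genes, taken here with or without MESP1. With exactly 2 of the 8 genes TFAP2A was 35.4 CPM at day 2 (251 cells) and 22.8 CPM at day 3 (350 cells). With 3 or more it was 65.1 CPM (39 cells) and 114 CPM (155 cells).

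The gated cells were 4.07% of the thinned day 3 cells and held 33.0% of the TFAP2A UMIs. The MESP1-positive cells, by contrast, were 62.1% of cells and held 40.1% of the UMIs. After thinning, 27.6% of the gated cells and 2.36% of the MESP1-positive cells had a TFAP2A UMI, at median depths of 17826 and 19554 UMIs. MESP1 marks nascent mesoderm, and its cells serve only as a comparison class, since free RNA was not measured apart from cells. The share in the germ gate was 2.34%, from 3 of 128 cells, while its level, 10.3 CPM (6.68 to 15.2), lay above the 5.39 CPM (4.91 to 5.90) of MESP1-positive cells.

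The order of TFAP2A levels across classes of at least 20 cells changed with the day. At day 1 cells of the amnion gate and streak cells, with 34.8 and 32.4 CPM, stood above the rest at 15.2 CPM and the SOX2-positive cells at 8.66 CPM, and the intervals of the first pair overlapped. At day 2 the amnion gate was followed by the germ gate at 35.5 CPM (30 cells), streak cells at 16.5 CPM, MESP1-positive cells at 15.7 CPM, the rest at 14.6 CPM, the endoderm gate at 7.95 CPM (27 cells) and SOX2-positive cells at 6.04 CPM, where only the germ gate and the streak cells were neighbours whose intervals did not overlap. At day 3 the 6 classes other than the amnion gate lay between 5.30 and 10.3 CPM. Among them the streak cells, at 7.64 CPM (6.56 to 8.86), did not overlap their lower neighbour, the MESP1-positive cells, at 5.39 CPM (4.91 to 5.90), and the other neighbours overlapped. SOX2 is a pluripotency factor, and its class had less TFAP2A at day 1, with 8.66 CPM against 18.7 CPM in all other cells. At day 2 the class had 6.04 CPM against 17.1 CPM. Cells with SOX2 that an earlier gate took count here among the other cells, so part of this difference follows from the gate order.

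TFAP2B was found mainly in the amnion gate at day 3. There cells of the amnion gate had 13.9 CPM (10.9 to 17.5) and other cells 0.380 CPM, a ratio of 36.6 (25.2 to 53.6), and the gated cells held 59.0% of all TFAP2B UMIs. At day 2 the levels were 2.25 against 0.228 CPM, from 9 and 26 UMIs, so most TFAP2B UMIs of day 2 lay outside the gate, 12 of them in the rest and 7 in streak cells. At day 1 only 3 of the 6 UMIs fell in gated cells, which is too few to rank classes.

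TFAP2C was highest in another class, the germ gate, at days 2 and 3. At day 1 it had 17.4 CPM in the amnion gate, 15.2 CPM in the rest, 13.8 CPM in SOX2-positive cells and 12.5 CPM in streak cells, and each overlapped its neighbours. At day 2 the 30 cells of the germ gate had 72.9 CPM (51.3 to 101) against 9.33 CPM in other cells, a log2 ratio of 2.97 that was 2.25 with gates at 10000 UMIs and 2.06 with gates on at least 2 UMIs. At day 3 the 128 cells of the germ gate had 150.2 CPM (135 to 166) against 5.69 CPM in other cells, a ratio of 26.4 (23.2 to 29.9).

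These 128 cells were 1.92% of cells and held 32.2% of the TFAP2C UMIs of day 3. After thinning, 39.8% of them had a TFAP2C UMI, against 1.21% of MESP1-positive cells, at median depths of 17137.5 and 19554 UMIs, where the part of free RNA was not measured. Cells of the amnion gate followed with 20.9 CPM (17.1 to 25.2), then the rest with 11.1 CPM, SOX2-positive cells with 10.5 CPM, streak cells with 7.69 CPM and MESP1-positive cells with 2.79 CPM. In that order the amnion gate stood apart from the rest and the MESP1-positive cells from the streak cells, while the other neighbours overlapped. The 50 cells of the endoderm gate had 32.1 CPM, but their ratio to other cells turned from above to below 1 with a second random thinning (log2 1.99 and −0.13), so no statement rests on it. TFAP2A had 10.3 CPM in the germ gate at day 3, with a ratio of 1.22 to other cells (0.786 to 1.81).

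**Figure D2:**
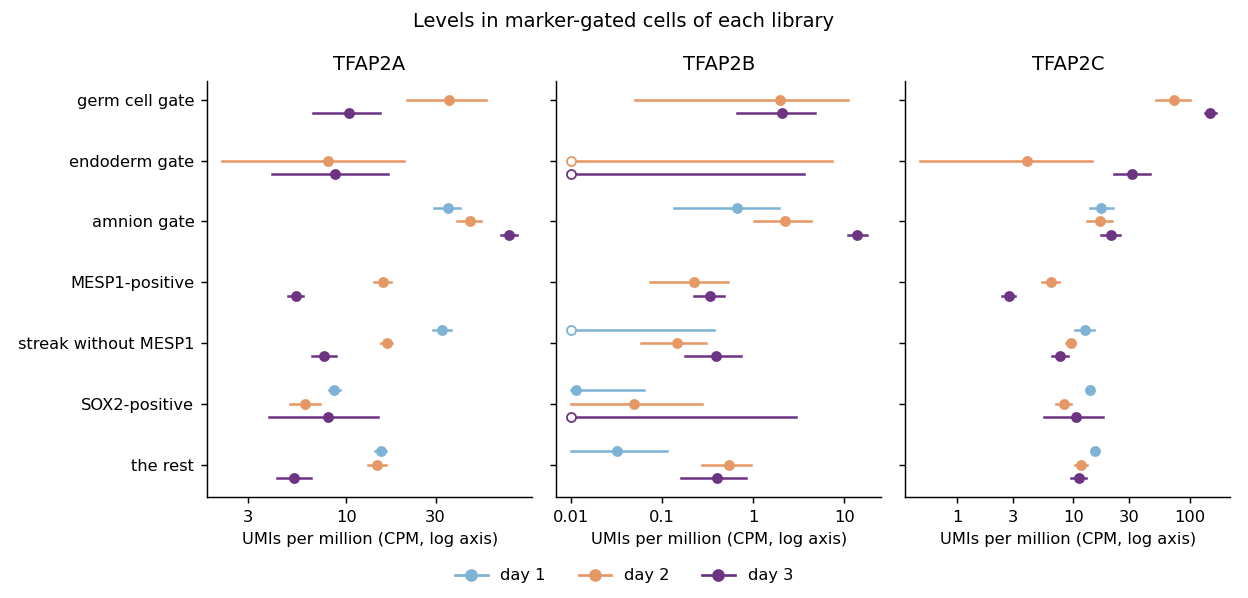
Points give the level of each factor in CPM (log axis, a separate range in each panel) in classes of at least 20 marker-gated cells of each day's library, and lines give exact 95% counting intervals, cut at the left edge of the panel. Open points at the left edge stand for 0 UMIs, and values below the edge are drawn on it. At day 3 the amnion gate stood out with 74.2 CPM of TFAP2A and 13.9 CPM of TFAP2B, and the germ gate with 150.2 CPM of TFAP2C.

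Levels were also followed by counting how many of the 8 amnion genes or of 4 germ cell genes (SOX17, NANOS3, PRDM1 and KIT) had a UMI in a thinned cell. This count was added after the class levels were seen and rests on the same cells. At day 3, TFAP2A was 4.46 CPM with 0 amnion genes (4323 cells), 7.002 CPM with 1 (1847 cells), 22.8 CPM with 2 (350 cells) and 114 CPM with 3 or more (155 cells). TFAP2B in the same cells was 0.112, 0.530, 3.41 and 22.8 CPM, and TFAP2C was 5.20, 13.1, 13.8 and 25.5 CPM. At day 2 TFAP2A was 12.2, 19.8, 35.4 and 65.1 CPM, the last from 39 cells, and at day 1 it was 10.8, 19.2 and 35.1 CPM for 0, 1 and 2 genes. The day 1 bin of 3 or more held 7 cells and is not used. At day 3 the intervals of TFAP2A and TFAP2B did not overlap from one bin to the next, while those of TFAP2C overlapped between 1 and 2 genes. Cells of the germ gate were not left out of these bins. Of the 8 genes, HPGD had 263 CPM in thinned day 3 cells with a TFAP2C UMI and 30.9 CPM in cells without. WNT6 and DLX5 were also higher in cells with TFAP2C, while the intervals of GATA3, ISL1, GABRP, VTCN1 and IGFBP3 included 1.

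With the germ cell genes TFAP2C was higher in each bin of day 3. Its level was 3.66 CPM with 0 genes (6116 cells), 25.6 CPM with 1 (392 cells), 116 CPM with 2 (124 cells) and 238 CPM with 3 or more (43 cells). TFAP2A in these cells was 7.98, 15.6, 10.2 and 11.3 CPM, and the last interval, from 5.19 to 21.5 CPM, overlapped the first. With 1 gene the interval of TFAP2A, from 13.0 to 18.6 CPM, lay above that with 0 genes, from 7.50 to 8.49 CPM. At day 2 TFAP2C was 8.97, 14.96 and 57.9 CPM with 0, 1 and 2 genes, and TFAP2A was 14.7, 21.3 and 27.4 CPM. At day 1 TFAP2C was 14.3 CPM with 0 and 14.7 CPM with 1, which do not differ beyond counting error.

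**Figure D3:**
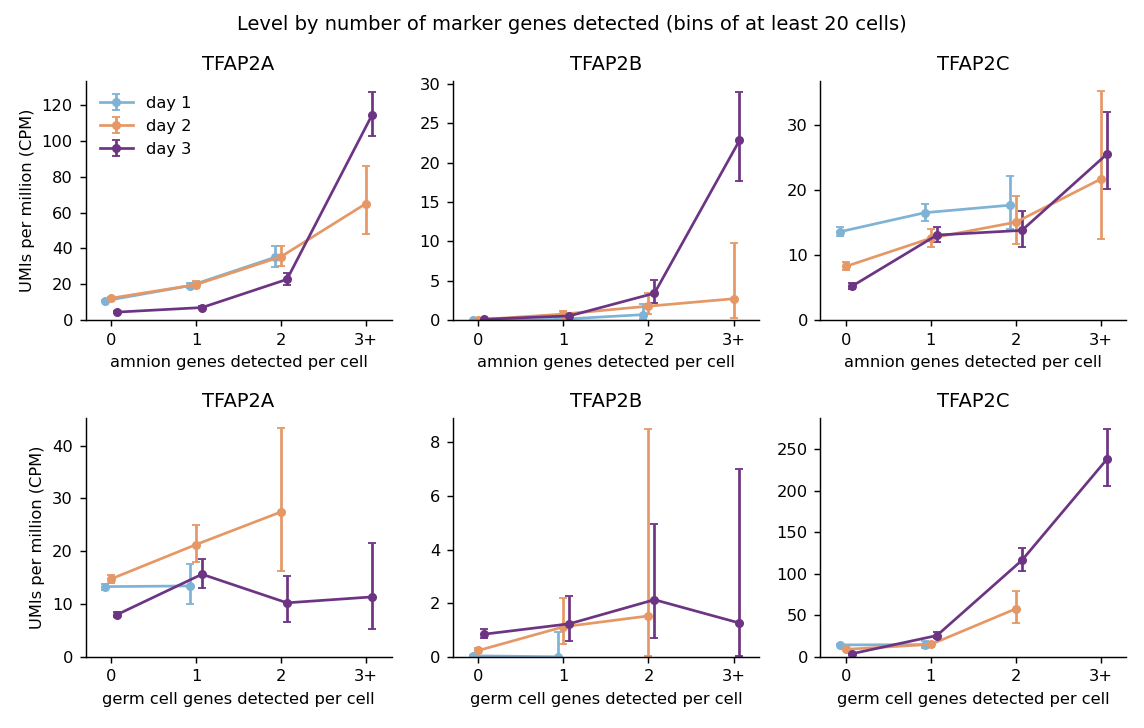
Each panel gives the level of 1 factor in CPM against the number of amnion genes (upper row, of 8) or germ cell genes (lower row, of 4) with a UMI in a thinned cell, with 1 line per day and exact 95% counting intervals. At day 3 TFAP2A reached 114 CPM and TFAP2B 22.8 CPM in cells with 3 or more amnion genes, and TFAP2C reached 238 CPM in cells with 3 or more germ cell genes.

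SOX17 is shared by germ cells and endoderm, so SOX17-positive cells of day 3 were divided further, again after the values were seen. With NANOS3 (47 cells) the TFAP2C level was 222 CPM, with PRDM1 but not NANOS3 (81 cells) it was 119 CPM, and with neither (109 cells) it was 55.3 CPM. The 44 cells with NANOS3 but not SOX17 had 70.8 CPM, and the 6169 cells with none of these genes had 3.71 CPM. NANOG, a pluripotency factor kept in human germ cells, had 181, 76.7, 37.9, 61.2 and 7.29 CPM in these 5 sets. FOXA2 was lower in the NANOS3 set, with 6.86 CPM against 43.7 CPM in the PRDM1 set and 31.9 CPM in the set with neither. TFAP2A was 10.97, 10.04 and 14.9 CPM in the SOX17-positive sets, whose intervals overlapped, and 33.6 CPM (22.3 to 48.6) in the cells with NANOS3 but not SOX17.

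Cells with at least 5 UMIs of a factor, without thinning, were then examined by class and marker, a set also chosen after values were seen. Of 31 such TFAP2A cells at day 3, 21 were in the amnion gate, 7 were MESP1-positive, 2 were streak cells and 1 was in the rest. CDH1, the cell adhesion molecule E-cadherin, was found in 30 of them (96.8%) and in 29.6% of other cells, and IGFBP3, a binding protein of insulin-like growth factors, in 58.1% against 2.30%. CDH2, which encodes N-cadherin, was found in 64.5% against 96.9%, and SOX2 in 0 against 5.04%. Of 68 TFAP2C cells at day 3, 29 were in the germ gate, 11 in the rest and 9 were MESP1-positive. A further 8 were in the amnion gate, 8 were streak cells and 3 were in the endoderm gate. SOX17 was found in 85.3% of the 68 against 5.12% of other cells, NANOS3 in 75.0% against 2.45%, and NANOG in 82.4% against 9.34%. HPGD, a gene of the amnion gate, was found in 86.8% against 17.6%, and MESP1 in 33.8% against 83.5%. Their median depths, 22671 and 22135 UMIs, were above those of other cells, 19345.5 and 19332 UMIs, and the part of depth in these shares was not tested.

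At day 1 there were 96 cells with at least 5 TFAP2A UMIs. NANOG was found in 93.8% of them against 84.5% of other cells, SOX2 in 87.5% against 92.5%, GATA3 in 90.6% against 48.3%, MIXL1 in 55.2% against 16.4%, and TFAP2B in none. GATA3 is a transcription factor of early amnion and trophoblast, and MIXL1 one of the primitive streak. These cells were deeper than others, with a median of 72027 against 41229 UMIs, and the part of depth in these shares was not tested.

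Each of 37 markers was also used alone. At day 3 TFAP2A was higher in cells with CDH1 (ratio 5.35, interval 4.76 to 6.02), EPCAM, an epithelial adhesion molecule (6.86, 6.08 to 7.75), and IGFBP3 (16.8, 14.5 to 19.4). It was lower in cells with VIM, an intermediate filament of mesenchymal cells (0.270, 0.241 to 0.304), and with LHX1, a mesoderm factor (0.182, 0.159 to 0.208). At days 1 and 2 the ratio was 1.34 and 1.28 in CDH1-positive cells, and 0.850 and 1.03 in EPCAM-positive cells. Ratios for TFAP2C at day 3 were 21.5 in SOX17-positive, 21.1 in NANOS3-positive, 13.0 in PRDM1-positive, 13.2 in KIT-positive and 12.6 in NANOG-positive cells, and 0.171 in HAND1-positive cells, HAND1 being a factor of extraembryonic mesoderm and amnion. At day 1 the TFAP2C ratio was 1.05 in NANOS3-positive and 0.993 in NANOG-positive cells.

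**Figure D4:**
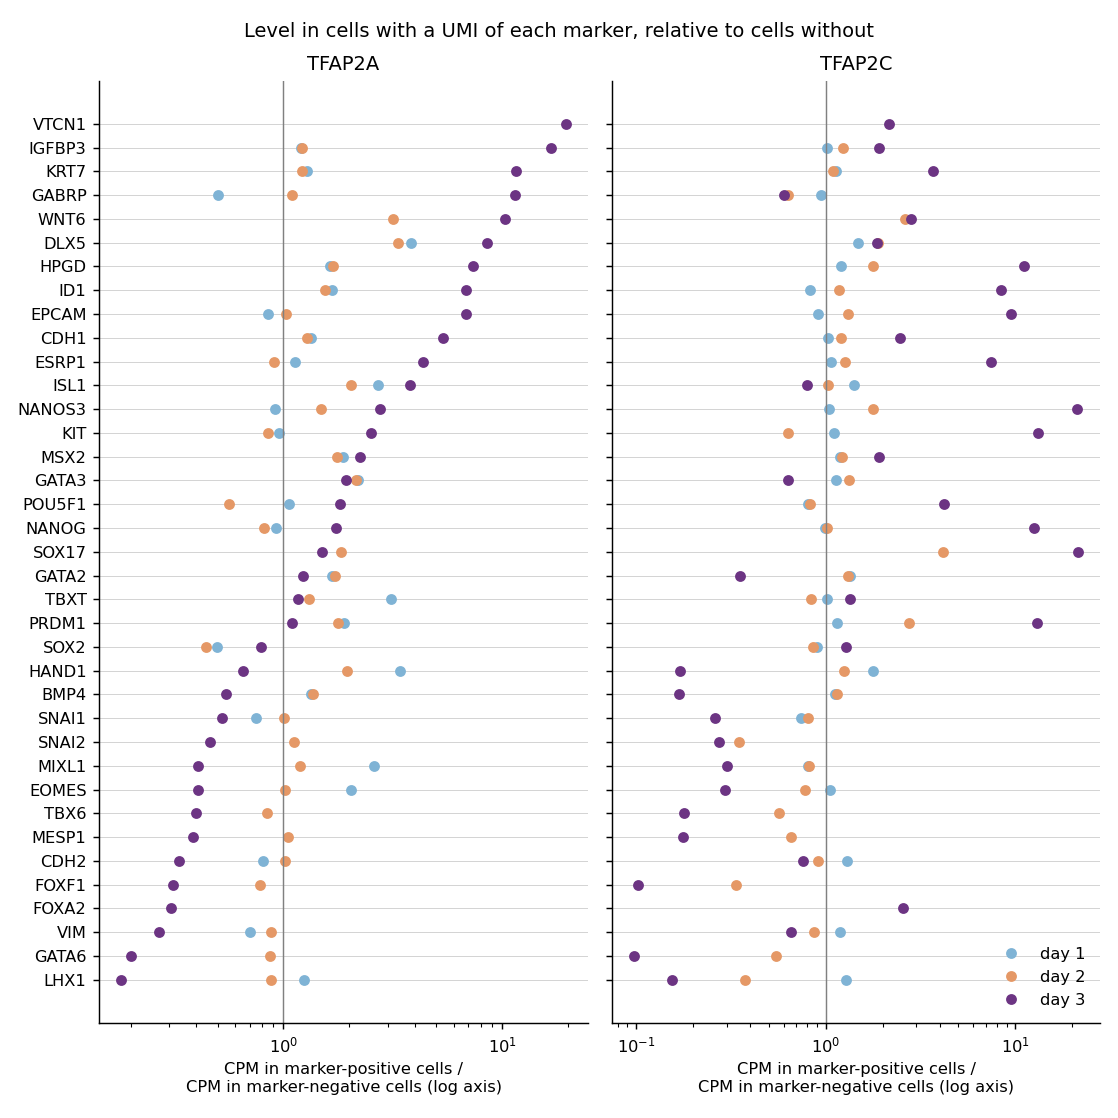
Points give the level of TFAP2A (left) or TFAP2C (right) in cells with a UMI of the marker divided by that in cells without, on a log axis, for each of 37 markers and each day's library, where at least 20 cells had the marker and the ratio was above 0. Day 3 ratios spread from 0.182 (LHX1) to 19.5 (VTCN1) for TFAP2A and from 0.0974 (GATA6) to 21.5 (SOX17) for TFAP2C, and day 1 ratios from 0.499 (SOX2) to 3.81 (DLX5) and from 0.737 (SNAI1) to 1.78 (HAND1).

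In thinned cells TFAP2A and TFAP2C were both found in 11 cells at day 1, 37 at day 2 and 25 at day 3, while the product of their shares would give 13.9, 21.7 and 7.06 cells. TFAP2A and TFAP2B were both found in 0, 5 and 12 cells, against products of 0.0609, 0.762 and 0.963. At day 3 TFAP2A was 102 CPM (76.3 to 132) in cells with TFAP2B and 8.13 CPM in cells without. In cells with TFAP2C, TFAP2A was 11.2 CPM against 13.5 CPM in cells without at day 1, 25.4 against 14.7 CPM at day 2 and 32.6 against 7.79 CPM at day 3. In cells with TFAP2A, TFAP2C was 18.5 against 14.1 CPM at day 1 (ratio 1.31, 1.13 to 1.53), 17.4 against 9.02 CPM at day 2 and 25.5 against 7.62 CPM at day 3, so the day 1 ratios went opposite ways. Without thinning TFAP2A and TFAP2C were both found in 554, 274 and 155 cells at days 1, 2 and 3, against products of 446.3, 177 and 47.2 cells. Deeper cells are more likely to show both factors, so these unthinned counts also depend on depth, whose part was not tested. Doublets that escaped removal would also place factors in the same barcode, and their part was not tested.

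The 25 cells of day 3 with both TFAP2A and TFAP2C were set beside those with 1 factor or neither. SOX17 was at 74.0 CPM in them, 137 CPM in cells with TFAP2C alone, 6.04 CPM in cells with TFAP2A alone and 10.7 CPM in cells with neither. HPGD, a prostaglandin-degrading enzyme and one of the amnion genes, was at 360 CPM in cells with both, 228 CPM with TFAP2C alone, 187 CPM with TFAP2A alone and 25.4 CPM with neither. ISL1 was at 89.6 CPM in cells with both, 25.4 CPM with TFAP2C alone, 111 CPM with TFAP2A alone and 28.0 CPM with neither. IGFBP3 was at 139 CPM with TFAP2A alone and at 5.84, 2.36 and 3.78 CPM in cells with both, with TFAP2C alone and with neither. EPCAM was at 331, 291 and 255 CPM in cells with both, TFAP2C alone and TFAP2A alone, against 50.1 CPM with neither.

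Thinned cells with a UMI of TFAP2A were then compared with cells without one across all genes. In the day 1 library 3.01% of tested genes were higher and 1.55% lower in positive cells by the rule of 10 CPM, 1.5-fold and an interval that excludes 1. At day 2 the shares were 2.34% and 1.85%, and at day 3 they were 10.1% and 6.74%. The interval is not adjusted for the number of genes, so counting error alone puts some genes past the rule.

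Among 13 amnion genes, all tested at day 3, 10 were higher in TFAP2A-positive cells and 1, BMP4, was lower, beside 10.1% and 6.74% of all tested genes. Of these, IGFBP3 had 147 against 4.38 CPM, ISL1, a LIM homeobox factor, 115 against 27.2 CPM, WNT6, a secreted ligand, 33.6 against 2.77 CPM, and BMP4, the ligand named in the series title, 240.3 against 393 CPM. At day 2 all 7 tested amnion genes were higher, and at day 1, 2 of 4 were, GATA3 and MSX2, beside 2.34% and 3.01% of all tested genes. The 8 genes of the amnion gate are among these 13. The median log2 difference of the list was 0.68, 1.05 and 2.82 at days 1, 2 and 3, and that of all tested genes was 0.03, −0.0052 and −0.02.

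In the surface ectoderm list all 5 tested of 8 genes were higher at day 3. Not tested were KRT5 and KRT14, with 0 UMIs in positive cells of day 3, and GRHL3, with 5. Across all tested genes of that day 10.1% were higher and 6.74% lower, which is the background for each list below. TP63, a factor of stratified epithelia, had 22.7 CPM in positive and 0.870 CPM in negative cells, GRHL2, an epithelial factor, 119 and 16.5 CPM, and the keratins KRT8, KRT18 and KRT19 had ratios of 2.26, 2.31 and 2.97. At day 2, 2 of 4 were higher, KRT8 and KRT19, beside 2.34% of all tested genes, and at day 1, 0 of 4, beside 3.01%. Of the trophoblast list 2 of 10 genes could be tested at day 3, TP63 and KRT7, both higher and both also members of another list. In positive cells of that day CGA and CYP19A1 had 1 UMI each, and CGB5, GCM1, ELF5, VGLL1, SIGLEC6 and XAGE2 had 0. In the neural crest list 2 of 6 genes were tested at day 3, of which SNAI2, an EMT factor, was lower, and at day 2 the 1 tested gene, SOX9, was higher. Of the germ cell list NANOS3 was higher at day 3 among 3 tested, PRDM1 and SOX17 were both higher at day 2, and the 1 gene tested at day 1 was not. KLF5 was the 1 tested gene of 8 naive pluripotency genes and was lower at day 3.

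The genes past 1.5-fold in the same direction in all 3 libraries were 21 higher (0.24% of genes tested) and 9 lower (0.103%) in TFAP2A-positive cells. This rule asked for at least 10 CPM in the higher group of each library, but not for an interval that excludes 1. The higher ones were led by RNF43, a membrane ubiquitin ligase that restrains WNT signalling, with 10.3 against 4.87 CPM at day 1, 21.8 against 7.87 at day 2 and 34.5 against 4.78 at day 3. They went on with GATA3, WLS (a carrier for WNT secretion), DMD, CAMK2N1, MSX2, PCAT14, ADAMTS17, BMP7 and CDX2. GATA3 had 54.5 against 19.1 CPM at day 1, 43.3 against 17.1 at day 2 and 93.3 against 48.9 at day 3. The lower ones were GRIN2B, ANOS1, TSPO, RND3, SNAPC2, MPPED2, CRNDE, FOXD3-AS1 and KCNQ1OT1. Among these, the intervals of GRIN2B, MPPED2, CRNDE and KCNQ1OT1 included 1 at day 1, and those of SNAPC2 and FOXD3-AS1 at day 3. With a second random thinning 4 genes were lower in place of 9.

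Chosen after their values were seen, the genes of day 3 whose intervals lay farthest above 1 in TFAP2A-positive cells were TCIM (34.5 against 0.528 CPM), IGFBP3, LINC02694 and PHOX2A (17.6 against 0.373 CPM). On the lower side, again chosen so, these included DGKB (3.36 against 42.3 CPM), SHISA6 (60.5 against 279.9 CPM) and LHX1 (171 against 670.4 CPM). At day 2 SOX2 was among the lowest, with 33.0 against 80.9 CPM. At day 1 the WNT ligand WNT5B had 48.8 against 12.6 CPM, LEF1, a factor of WNT signalling, 30.0 against 8.09 CPM, and LEFTY1, a NODAL inhibitor, 27.2 against 77.3 CPM.

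For TFAP2C-positive against negative cells, 1.66% of tested genes were higher and 1.18% lower at day 1, 1.67% and 1.18% at day 2, and 12.2% and 9.48% at day 3. Of 6 germ cell genes, the 5 tested at day 3 were all higher in positive cells. NANOS3 had 80.8 against 3.00 CPM, PRDM1, a transcriptional repressor, 140.4 against 11.1 CPM, and SOX17 155 against 12.1 CPM. KIT, the stem cell factor receptor, had 29.3 against 2.50 CPM, and SOX15, a SOX factor of germ cells, 23.2 against 1.67 CPM. At day 2 both tested germ cell genes, PRDM1 and SOX17, were higher, and at day 1 the 1 tested gene was not. SOX17, NANOS3 and PRDM1 also make up the germ gate.

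Amnion genes were mixed in TFAP2C-positive cells of day 3, with 4 of 9 tested higher (WNT6, DLX5, HPGD and MSX2) and 3 lower (GATA2, HAND1 and BMP4). Across all tested genes of that day 12.2% were higher and 9.48% lower, which is the background for each list below. In the naive pluripotency list TFCP2L1, a factor of naive cells, had 23.2 against 0.556 CPM and KLF5 had 9.09 against 24.8 CPM. The other 6 genes were too low to be tested. KLF17, DPPA3, DPPA5 and DNMT3L had 0 UMIs in positive cells of day 3, and SUSD2 had 1. KLF4 had 6 UMIs there, at 6.06 against 0.895 CPM. TFCP2L1 was thus the only gene of this list called higher at day 3, and a naive state was not tested. Of the surface ectoderm list 2 of 4 tested were higher, KRT19 and GRHL2, of the neural crest list 0 of 2 were higher and SNAI2 was lower, and no trophoblast gene could be tested. At day 2 the tested genes KLF5 and PAX3 were higher, beside 1.67% of all tested genes. Chosen after their values were seen, the genes highest by their intervals at day 3 included VSTM2B (130 against 3.00 CPM), IGF1 (48.5 against 1.14 CPM), NRK (166 against 5.68 CPM) and WNT2 (33.3 against 0.895 CPM). VSTM2B was also the first at day 1, with 21.9 against 3.97 CPM. The lowest included HS3ST1 (3.03 against 56.2 CPM), NRG2 (11.1 against 98.9 CPM) and LHX1 (126 against 668.7 CPM).

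In all 3 libraries together, again with no demand on the interval, 4 genes were higher (0.0459%) and 3 lower (0.0344%) in TFAP2C-positive cells. They were SBF2-AS1, EPB41L4A, PLEKHM3 and TRMT2B on the higher side and MATN1, ITPR1 and SH3PXD2A on the lower side. A second random thinning gave 10 higher and 0 lower genes, so these names rest on the draw.

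Positive and negative cells had close depth and quality. At day 3 the median was 18072.5 UMIs in TFAP2A-positive and 19393 in negative cells, and 17951.5 UMIs in TFAP2C-positive and 19377 in negative cells. The median mitochondrial share was 3.57% against 3.53% for TFAP2A and 3.51% against 3.54% for TFAP2C.

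Genes most like each factor were sought by the Pearson correlation of log2(CPM + 1) over the 16 combinations of class and day with at least 50 cells, among 11558 genes outside the gates. These points share cells, libraries and depth, so the coefficients are descriptions. For TFAP2A the closest were PPP1R2 (0.92), a phosphatase inhibitor, EYA2 (0.89), PM20D2 (0.86), MIR205HG (0.85) and HMX1 (0.84), followed by FGFBP1, MRS2, ADAMTS17, RNF43 and SERTAD4. For TFAP2B they were TP63 (0.96), PRSS12 (0.96), TRIM55 (0.95), CTSL, BARX2, DOCK9, ADGRG1, DLGAP4, SPNS2 and QPRT. All of these had their highest level in the amnion gate at day 3. TFAP2B itself was at 13.9 CPM there and at most at 2.25 CPM in the other combinations, so its coefficients rest largely on that combination. For TFAP2C they included TNK2 (0.97), SLC4A8 (0.95), PDPN (0.95), PLPP1, CA8, INAVA, DHTKD1, C1orf115 and RAB15. PDPN, which encodes podoplanin, a surface protein of human germ cell precursors, had its highest level, 436 CPM, in the germ gate at day 3, and the other genes named for TFAP2C had their highest level there too.

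The other family members were low. TFAP2D had 4, 2 and 2 UMIs at days 1, 2 and 3, and TFAP2E 0.411, 0.811 and 0.816 CPM. CITED proteins bridge TFAP2 factors to the acetyltransferases EP300 and CREBBP, and KCTD1 and KCTD15 are known to inhibit TFAP2A. CITED2 was at 15.7, 52.1 and 74.3 CPM at days 1, 2 and 3, KCTD1 at 9.01, 14.4 and 30.8 CPM, and KCTD15 at 10.96, 14.1 and 23.1 CPM. CITED4 went the other way, with 22.7, 14.6 and 3.06 CPM, and CITED1 had 5.28, 3.19 and 1.36 CPM. Of the 12 genes of the family and modulator list 9 were tested, and at day 3 relative to day 1, 6 were higher (CITED2, KCTD1, KCTD15, WWOX, EP300 and CREBBP) and 1 lower (CITED4), beside 31% and 15.1% of all genes. With TMM the log2 differences of WWOX, EP300 and CREBBP were 0.42, 0.44 and 0.51, under 1.5-fold. At day 3 relative to day 2, 2 were higher and 1 lower, beside 12.5% and 12.1% of all genes, which is near that background. At day 2 relative to day 1, 3 were higher (CITED2, KCTD1 and EP300) and 1 lower, beside 17.1% and 5.25%, and with TMM the log2 differences of KCTD1 and EP300 were 0.36 and 0.33, again under 1.5-fold. The median log2 difference of the list was 0.75, 0.16 and 0.53 in these comparisons, against 0.27, 0.05 and 0.22 for all tested genes. Within libraries KCTD1 was higher in TFAP2A-positive than in negative cells at days 3 and 2 and CITED4 at day 3, and KCTD1 was also higher in TFAP2C-positive cells at days 3 and 2.

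In barcodes that failed the filters TFAP2A was at 6.51, 9.66 and 3.10 CPM at days 1, 2 and 3, from 22, 43 and 3 UMIs, and TFAP2C at 8.87, 6.29 and 0 CPM, from 30, 28 and 0 UMIs.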

How the data were processed

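UCLA1 cells at days 1, 2 and 3 were dissociated with trypsin and loaded on a 10x Genomics droplet platform, per the labels' protocols, giving 1 library per day. The authors deposited 1 matrix of raw UMI counts per library, made with Cell Ranger 5.0.1 on hg38 per the submitters' processing notes, with no normalisation. Barcodes under 1000 detected genes or over 20% mitochondrial UMIs were dropped. Doublets were scored per library against simulated doublets (2000 variable genes, 30 components), and the highest-scoring cells were removed at 0.8% per 1000 barcodes (144, 668 and 457 cells). CPM is UMIs summed over kept cells, scaled to 1000000 UMIs. Shares, gates and positive or negative cells came from cells thinned to 5000 UMIs by a seeded draw, which left out 34, 483 and 129 shallower cells; levels within gates used all UMIs. Intervals (Poisson, Clopper-Pearson, conditional binomial) are exact and cover counting error only.

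Named genes were the members, the family and modulator list, antisense partners, 6 marker lists, up to 10 genes in each direction apart in all 3 libraries for TFAP2A and TFAP2C, and the 10 most alike genes (1 of them is not reported here); others are marked where named. The members, lists and gates were chosen with earlier results of these data known. Python 3.11.15, numpy 2.4.6, scipy 1.17.1 and edgeR 4.0.16 (normalisation factors only) were used.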

Additional observations from a re-analysis of the deposited data

Results flagged for a closer look

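In 7 cases the ratio of a factor's level in marker-positive over marker-negative cells was at least 1.5 on one day and at or under its inverse on another, among markers with at least 20 positive cells, with both intervals on their own side of 1. The difference between days was not tested, since there is 1 library per day. TFAP2A in MIXL1-positive cells had a ratio of 0.407 at day 3 (4133 cells) and 2.61 at day 1 (165 cells), and in EOMES-positive cells 0.406 at day 3 (2710 cells) and 2.03 at day 1 (304 cells). MIXL1 and EOMES are primitive streak factors. In HAND1-positive cells the TFAP2A ratio was 3.43 at day 1 (45 cells), 1.94 at day 2 (496 cells) and 0.652 at day 3 (4703 cells).

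For TFAP2A in POU5F1-positive cells the ratio was 1.82 at day 3 and 0.563 at day 2. In GABRP-positive cells it was 11.5 at day 3 (62 cells) and 0.503 at day 1 (29 cells, interval 0.217 to 0.993). TFAP2C in HAND1-positive cells had a ratio of 0.171 at day 3 and 1.78 at day 1, from 4703 and 45 cells. Intervals were not adjusted for the 37 markers compared.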

How the results depend on the processing

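No paired analysis was possible because each day has 1 library and no test was made. Depth limits shares of cells, so every TFAP2A and TFAP2C share moved with the thinning depth, while those of TFAP2B, which rest on few cells, moved at day 1 with 3000 UMIs and at day 3 with 10000.

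With TMM and with median-of-ratios the TFAP2A log2 difference of day 2 over day 1 was −0.15 and −0.15 (0.18 with CPM), that of day 3 over day 1 −0.96 and −0.93, and for TFAP2C they were −0.90 and −0.90 (day 2 over day 1) and −1.10 and −1.07 (day 3 over day 1). The other level alternatives (stricter filters, no doublet removal, all barcodes, mean of cells) left the day differences within their intervals.

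For days 1, 2 and 3, TFAP2A was found in 3.24%, 4.21% and 2.20% of cells at 3000 UMIs, 10.9%, 12.9% and 6.06% at 10000, and 0.572%, 0.860% and 0.569% with at least 2 UMIs. TFAP2C was found in 4.49%, 2.90% and 2.17%, in 12.5%, 8.56% and 4.55%, and in 0.286%, 0.208% and 0.734%. TFAP2B was found in 0% at day 1 at 3000 UMIs, 0.700% at day 3 at 10000, and 0%, 0.0148% and 0.0599% with at least 2 UMIs.

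Class log2 ratios follow. With gates at 10000 UMIs, TFAP2C in the germ gate was 2.25 at day 2 and 4.94 at day 3, in the amnion gate 1.04 and in MESP1-positive cells −3.36 at day 3; TFAP2A in the amnion gate was 1.41 at day 2 and 3.27 at day 3, in MESP1-positive cells 0.25 and −1.81 and in streak cells −0.072 at day 2. With gates on at least 2 UMIs, TFAP2A in the amnion gate was 2.38, 2.75 and 4.22 at days 1, 2 and 3 and in the rest 0.14 at day 3; TFAP2C was 2.06 in the germ gate, 1.54 in the amnion gate and −1.20 in MESP1-positive cells at day 2. Without doublet removal TFAP2A at day 3 was 3.42 in the amnion gate and −1.18 in MESP1-positive cells. With a second seed TFAP2A was 3.36 in the amnion gate at day 3 and 0.23 in MESP1-positive cells at day 2, and TFAP2C was 1.25 in the amnion gate at day 2, 4.51 in the germ gate and −0.13 in the endoderm gate at day 3. The cause was not tested.

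Of the 21 and 9 genes higher and lower in TFAP2A-positive cells, 1 and 1 met 2-fold, 12 and 2 met 20 CPM, and 4 were lower both at 10000 UMIs and with the second seed. For TFAP2C (4 and 3), 0 and 1 met 2-fold, 0 and 0 met 20 CPM, 10 and 0 came with the second seed, and 0 were lower at 10000 UMIs or without doublet removal.

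Counts of genes higher and lower were 662 and 639 at 2-fold and 3897 and 5143 with no CPM minimum for day 3 over day 2. For day 3 over day 1 they were 1532 and 790 at 2-fold, 8834 and 4711 with no minimum, and 1814 and 2628 with TMM, against 3134 and 1526. For day 2 over day 1 they were 469 and 91, 7091 and 1426, and 549 and 1688 with TMM, against 1662 and 510.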
